A study of Mus musculus with 57 samples.

Results

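Nicotinamide mononucleotide (NMN) was given to mice that received a single cardiotoxic dose of doxorubicin (Doxo), and the hearts of these mice were compared with hearts of mice that received Doxo and vehicle. The members are the 26 acute-study hearts whose labels read doxo or doxo+NMN, 13 in each group, of 57 hearts in the series. All were male C57BL6/J mice, bought at 9 weeks of age. Doxo was a single intraperitoneal injection of 20 mg/kg. NMN was injected intraperitoneally at 180 mg/kg/day from 5 days before Doxo until 5 days after it, 30 min before Doxo on the day of Doxo itself. Doxo mice received saline vehicle in place of NMN, and 14 Ctrl mice received vehicle only. Hearts were collected 5 days after Doxo, 2 h after the last NMN injection, so every heart came from a mouse that was alive on that day. The paper reports that a smaller share of Doxo than of Doxo-NMN mice in its acute study survived to that day. What part this difference had in the comparison was not tested. No group received NMN without Doxo, so an effect of NMN alone cannot be told apart from its effect in Doxo-treated hearts.

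Doxorubicin is an anthracycline used against many cancers. It poisons topoisomerase II and cycles through redox reactions that make reactive oxygen species, and the heart is the organ that limits its dose. NMN is a direct precursor of NAD+, into which it is converted by the NMNAT enzymes. NAD+ carries electrons in energy metabolism and is consumed by the sirtuin deacylases, by the poly(ADP-ribose) polymerases and by the NAD+ glycohydrolase CD38. The heart makes most of its NAD+ by salvage of nicotinamide through NAMPT, and it can also use nicotinamide riboside through the NMRK kinases.

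Poly(A) RNA of whole frozen hearts was sequenced and reads were counted per gene. Libraries held 32409622 to 43907454 counts in Ctrl, 34707890 to 48122748 in Doxo and 35146539 to 52102850 in Doxo-NMN hearts. Levels are counts divided by the TMM-scaled library size (CPM). Of 25416 genes, 14240 had enough counts to be tested with edgeR's quasi-likelihood F-test in 1 fit of all 40 acute hearts. Unless another fit is named, every adjusted p below comes from that test with Benjamini-Hochberg adjustment over these genes. In another fit, such as one without 1 heart or that of the chronic hearts, the adjustment was over the genes of that fit. A gene was called where the adjusted p was under 0.05 and the change was 1.5-fold or more. Fold changes are log2 values ± SE. The cardiomyocyte markers were at the highest levels of the marker lists in all 40 hearts, with a summed level of 30120 to 76440 CPM in Doxo and 37960 to 84030 CPM in Doxo-NMN hearts. The atrial genes *Myl4*, *Myl7*, *Sln*, *Nppa* and 6 others summed to between 56.2 and 6398 CPM, with medians of 3184 CPM in Ctrl, 89.5 in Doxo and 81.1 in Doxo-NMN hearts. In Doxo vs. Ctrl, 4 of the 10 were called lower, and the part of atrial tissue in which genes count as not moved by Doxo was not tested beyond the split by *Myl4* and the atrial covariate given with that count. *Myl4* was at or over 100 CPM in 8 Ctrl, 5 Doxo and 4 Doxo-NMN hearts. Doxo replicate 6 lay near the Ctrl hearts: over the genes called lower with NMN its median level relative to Ctrl was -0.03 on the log2 scale, beside a median of 0.85 over the Doxo hearts. In every heart, 70.9% to 78.6% of the gene counts from 1 to 20 were even numbers, and what this means for the counting was not tested. With all counts halved, 2180 genes were called in Doxo-NMN vs. Doxo and 138 of them were not moved by Doxo, beside 2428 and 168 with the counts as deposited.

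In Doxo-NMN vs. Doxo, 2428 of the 14240 tested genes were called, which is 17.1% of them. Of these, 1164 were higher with NMN (8.17%) and 1264 were lower (8.88%). The genes that fell included the cytokine brake *Socs3*, the immediate early factors *Junb* and *Fosl2*, the fetal myosin *Myh7* and the antioxidant gene *Nqo1*. Those that rose included the adult myosin *Myh6*, the mitochondrial coactivator *Ppargc1a*, fibrillar and type VI collagens, the clock output factor *Dbp* and some antiviral genes. Other matrix and antiviral genes fell. For scale, Doxo vs. Ctrl had 4289 called genes (30.1%), and 9694 genes (68.1%) passed the adjusted p alone there. Doxo-NMN vs. Ctrl had 1012 called genes (7.11%). The 3 comparisons share hearts, so their values are given side by side and not as independent results. Without Doxo replicate 6 the number called in Doxo-NMN vs. Doxo was 2986.

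The spread of the hearts differed between the groups. The SD was taken of log2 values of CPM plus 0.5. Its median over genes was 0.156 in Ctrl, 0.305 in Doxo and 0.219 in Doxo-NMN hearts, and it was 0.284 in Doxo hearts without replicate 6. The SD was larger in Doxo than in Doxo-NMN hearts for 82.5% of genes, and for 75.5% without that replicate. Few genes separated the groups completely. In 8 genes (0.0562%) no Doxo heart overlapped a Doxo-NMN heart, and 4 of these were called, *Etl4* and *Nadsyn1* as higher and *Fut2* and *Rel* as lower with NMN. *Etl4*, *Fut2* and *Rel* are named here after their values were seen. *Rel*, an NF-kappa-B subunit, lay between 15.4 and 67.7 CPM in Doxo (median 23.1) and between 6.40 and 14.5 CPM in Doxo-NMN hearts (median 10.1), a log2 fold change of -1.33 ± 0.16 (adjusted p = 2.2e-07).

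The smallest adjusted p belonged to *Palmd*, which encodes palmdelphin and lies on chromosome 3 (GRCm38, 116918258 to 116968987, minus strand). Its level was 55.2 to 75.7 CPM in Ctrl (median 62.0), 58.3 to 138 CPM in Doxo (median 103) and 46.5 to 61.3 CPM in Doxo-NMN hearts (median 51.6). In 12 of 13 Doxo hearts *Palmd* was above every Doxo-NMN heart, and the log2 fold change was -0.93 ± 0.08 (adjusted p = 5.8e-10). In Doxo-NMN vs. Ctrl it was -0.28 ± 0.08 (adjusted p = 0.0093), so the fitted level was also lower than in Ctrl. That change was under 1.5-fold, and the hearts of these groups overlapped.

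*Ddx3x*, an X-linked RNA helicase that acts in translation, was second. It was at 202 to 444 CPM in Doxo (median 366) and at 168 to 218 CPM in Doxo-NMN hearts (median 191), beside 179 to 213 CPM in Ctrl. The change was -0.83 ± 0.08 (adjusted p = 8.0e-10), and 12 Doxo hearts exceeded every Doxo-NMN heart. The other genes at the top of the lower list were *Mir22hg*, the host transcript of miR-22 (-2.04 ± 0.22), the translation start factor *Eif1a* (-1.37 ± 0.16), the zinc finger gene *Zfp445* (-0.99 ± 0.11), *Armcx5*, the ubiquitin ligase *Rlim*, the transcription factor *Sp3*, the DNA demethylase *Tet2* and the protease *Adamts4*. *Mir22hg* shares 206 exon bases with *Tlcd2* on the same strand, and reads of such a stretch cannot be assigned to 1 gene.

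Among genes that rose, *Nfatc2*, a calcium-regulated transcription factor, led with 3.95 to 16.7 CPM in Doxo (median 6.50) and 15.1 to 20.4 CPM in Doxo-NMN hearts (median 17.4). The groups overlapped through 1 heart, Doxo replicate 6, at 16.7 CPM. The log2 fold change was 1.10 ± 0.14 (adjusted p = 3.1e-07). *Tmem164* rose by 1.37 ± 0.17, *Tbc1d10c* by 1.13 ± 0.14 and *Tbc1d31* by 1.14 ± 0.16. *Tbc1d10c* shares 35.5% of its exon bases with another annotated gene on the same strand. *Kcna5*, which encodes the ultra-rapid potassium channel of the heart, went from a median of 11.6 to 28.6 CPM (1.06 ± 0.14, adjusted p = 8.4e-07). *Crocc*, *Trmt1l*, *Zbtb40* and *Alg12* were also among the 10 with the smallest adjusted p, at log2 fold changes of 1.03, 1.02, 0.68 and 0.61. The remaining gene of the 10, *Nadsyn1*, is given with the NAD+ genes below.

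**Figure D1:**
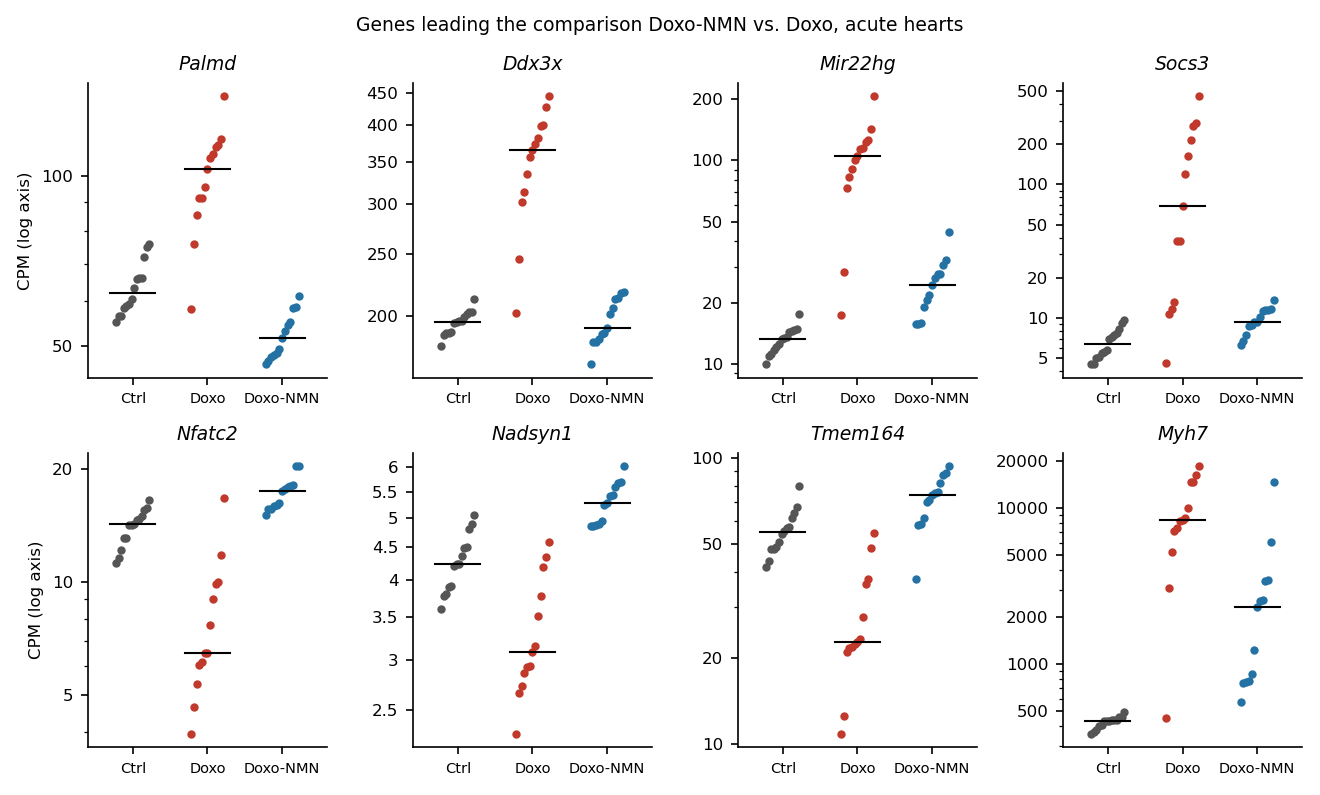
Level in each acute heart of 8 genes that lead the comparison or the text, as CPM on a log axis, for 14 Ctrl, 13 Doxo and 13 Doxo-NMN hearts, with a black line at the group median. Each point is 1 heart. For *Palmd* and *Ddx3x*, 12 Doxo hearts lie above every Doxo-NMN heart, for *Nadsyn1* the Doxo and Doxo-NMN hearts do not overlap, and 1 Doxo heart, replicate 6, lies near the Ctrl hearts in several panels.

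Ranked by size instead, the 10 largest decreases were in *Cxcl2*, *Adamts4*, *Serpina3f*, *Igkc*, *Selp*, *Cemip* and 4 haemoglobin genes. The neutrophil chemokine *Cxcl2* was at 0.0991 to 31.3 CPM in Doxo (median 2.46) and at 0 to 0.361 CPM in Doxo-NMN hearts (-5.55 ± 0.78, adjusted p = 1.1e-06). *Adamts4*, an aggrecanase, was at 0.913 to 121 CPM in Doxo (median 11.9) and at 0.129 to 1.40 CPM in Doxo-NMN hearts (-5.34 ± 0.62). The endothelial adhesion molecule *Selp*, the serpin *Serpina3f* and the hyaluronidase *Cemip* were at -4.17, -4.37 and -4.03. The haemoglobin genes, which were not called without Doxo replicate 6, and the immunoglobulin light chain gene *Igkc* are given with the cell type markers. Of the 10 largest increases, *Tmprss13* and the integrin subunit *Itgb6* both reached 2.02, and *Itgb6* was at 0.348 to 15.9 CPM in Doxo (median 0.511) and 0.254 to 13.9 CPM in Doxo-NMN hearts (median 8.81), with a change of 3.17 without Doxo replicate 6. *Kctd21* rose by 1.92 ± 0.38, *Fcrls* and *Mgl2*, both expressed in macrophages, by 1.75 (*Fcrls* by 2.76 without Doxo replicate 6), *Zfp882* by 1.74 and the long noncoding RNA *Chaer1* by 1.72. *Car3*, *Plin1* and *Comp* had larger or like fold changes (2.43, 2.27 and 1.68), but *Car3* and *Plin1* were not called in 3 and 9 of the 26 fits without 1 heart, and *Comp* was not called without Doxo-NMN replicate 2 (adjusted p = 0.19).

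The comparison was then read gene list by gene list. The bar chart gives the called share of 30 lists of functions. Each count is set against the 8.17% of all tested genes that were called higher and the 8.88% called lower, and each median against a median log2 fold change of -0.0008 over all tested genes. The lists were drawn up with earlier results of these data known, so the counts describe them and do not test them.

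**Figure D2:**
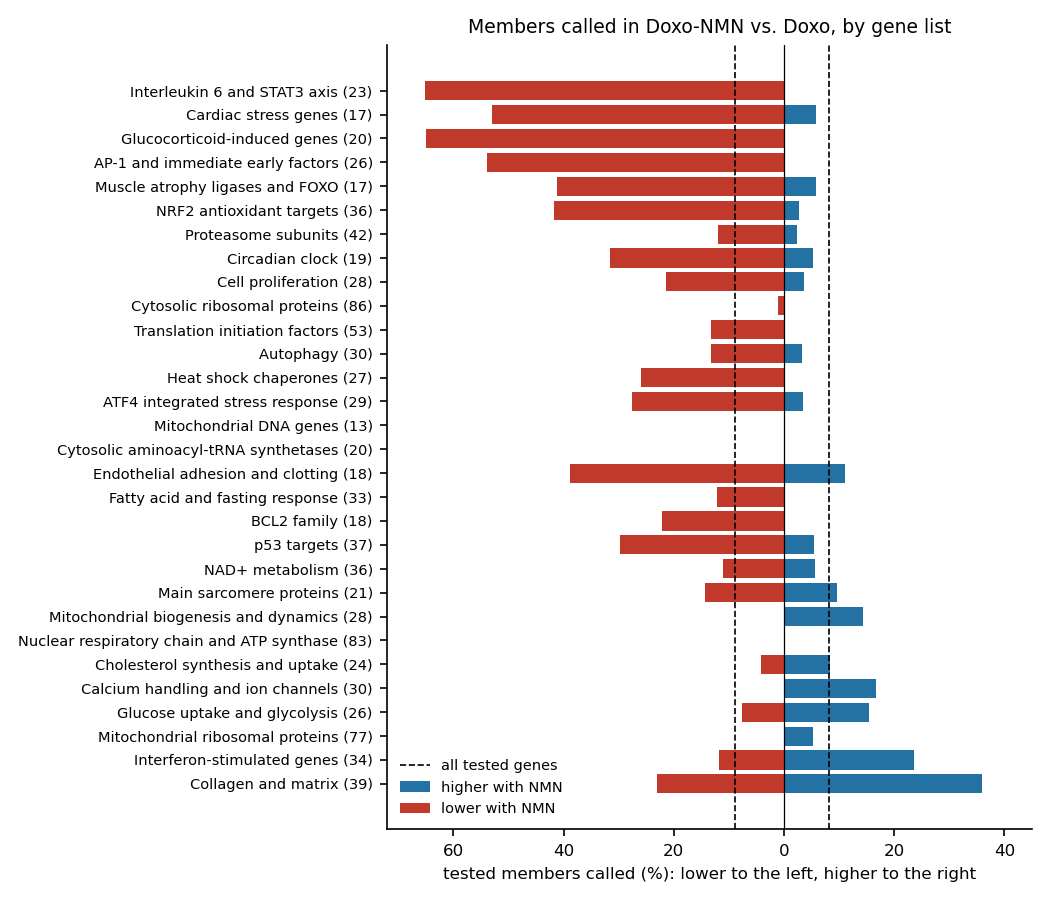
Share of each list's tested members that were called in Doxo-NMN vs. Doxo, in percent, drawn to the right for genes higher with NMN and to the left for genes lower with NMN, with the number of tested members in brackets. Dashed lines stand at 8.17% and 8.88%, the shares over all tested genes. Lists are ordered by their median log2 fold change, with the interleukin 6 and STAT3 axis lowest at the top and collagen and matrix highest at the bottom.

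Cytokine signalling through interleukin 6 and its relatives runs from gp130 receptors through JAK kinases to STAT3, whose targets include its own inhibitor SOCS3. Of 23 tested members of this axis, 15 fell and none rose, with a median log2 fold change of -1.19. *Socs3* was at 4.59 to 456 CPM in Doxo (median 68.5) and at 6.28 to 13.7 CPM in Doxo-NMN hearts (median 9.43), beside 4.52 to 9.65 CPM in Ctrl. Its log2 fold change was -3.74 ± 0.46 (adjusted p = 3.2e-07). *Stat3* itself went from a median of 435 to 181 CPM (-1.19 ± 0.17), the kinase *Pim1* from 93.6 to 25.3 CPM (-1.78 ± 0.22), and the receptor chain *Il4ra* and the NF-kappa-B cofactor *Bcl3* were at -1.65 and -2.04. The shared receptor *Il6st* changed by -0.27 ± 0.09, which passed the adjusted p (0.011) and not the fold.

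Immediate early and AP-1 factors, transcription factors that stress signals switch on within minutes, had 14 of 26 members lower and none higher (median -0.68). *Junb* was at 16.2 to 304 CPM in Doxo (median 82.6) and at 14.3 to 31.3 CPM in Doxo-NMN hearts (median 16.8), a log2 fold change of -2.76 ± 0.35 (adjusted p = 4.3e-07). *Fosl2* went from a median of 199 to 57.8 CPM (-1.94 ± 0.25), *Myc* from 18.4 to 5.59 CPM (-2.05 ± 0.32) and *Mafk* from 137 to 55.4 CPM (-1.21 ± 0.18). Genes that glucocorticoids are known to induce had 13 of 20 members lower and none higher (median -0.82). They included *Lcn2* (-2.73 ± 0.51), the metallothionein *Mt1*, at medians of 821 and 179 CPM (-1.99 ± 0.30), glutamine synthetase *Glul* (-0.82 ± 0.16) and *Cdkn1a* (-1.24 ± 0.17). *Mt2* also fell (-3.14 ± 0.42), but 73.5% of its exon bases are shared with *Gm45774* on the opposite strand.

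Stress programmes known from Doxo hearts also had more members lower than higher. The p53 targets had 11 of 37 members lower and 2 higher (median -0.02), with the cell cycle inhibitor *Cdkn1a* at medians of 192 and 70.8 CPM and *Btg2* at 299 and 51 CPM (-2.39 ± 0.30). *Ccng1*, also a p53 target, moved the other way, from 425 to 795 CPM (0.73 ± 0.15), as did *Ccnd1* (0.69 ± 0.19). NRF2 is the transcription factor of the antioxidant response, and 15 of 36 of its targets fell while *Cbr1* rose (median -0.43). *Nqo1* was at 47.9 to 615 CPM in Doxo (median 213) and at 38.1 to 188 CPM in Doxo-NMN hearts (median 61.0, -1.66 ± 0.27). *Hmox1* went from 57.1 to 11.7 CPM, *Txnrd1* from 117 to 59.2 CPM and *Gclc* from 31.7 to 16.7 CPM. Targets of ATF4, which responds to amino acid shortage and protein misfolding, had 8 of 29 lower and 1 higher (median -0.20). *Atf4* fell by 1.23 ± 0.20 and *Ppp1r15a* by 1.17 ± 0.16, and the proline synthesis enzyme *Aldh18a1* rose by 1.07 ± 0.19.

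Lists of protein turnover had more called members lower than higher. Of 17 ubiquitin ligase and FOXO genes of muscle atrophy, 7 fell and 1 rose (median -0.52), with *Cblb* at -1.27 ± 0.19, the cathepsin *Ctsl* at -1.13 ± 0.17 and *Trim63*, which encodes MuRF1, at -0.59 ± 0.19. The one that rose, *Klhl38*, shares 65.4% of its exon bases with *Gm15943* on the opposite strand. Of 30 autophagy genes 4 fell and 1 rose (median -0.24), namely *Sqstm1* (1005 to 407 CPM), *Bnip3* (352 to 147 CPM), *Map1lc3b* (424 to 217 CPM) and *Atg13* (187 to 94.1 CPM) as lower and the lysosomal factor *Tfeb* as higher (0.66 ± 0.15). At the adjusted p alone, with no fold limit, 25.7% of all tested genes were higher and 27.4% lower with NMN, and counts by adjusted p alone are to be read against these shares. Proteasome subunits had 5 of 42 called lower and 1 higher, and 30 were lower by adjusted p alone (median -0.36). The one that rose is *Psmb9*, the immunoproteasome subunit. Among 27 chaperones 7 fell (median -0.22), including *Hspb7*, at 4284 and 2352 CPM, *Bag3* (-0.76 ± 0.14) and *Hspb1* (-1.11 ± 0.22). The BCL2 family had 4 of 18 lower (median -0.03), among them the pro-death members *Bmf* (-1.30 ± 0.21) and *Pmaip1* (-1.60 ± 0.33).

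Translation genes are given by compartment. Initiation factors had 7 of 53 called lower and 37 lower by adjusted p alone (median -0.25), beside 27.4% of all tested genes, with *Eif1a* at -1.37, *Eif5* at -0.76 ± 0.10 and *Eif1* at -0.70 ± 0.12. Cytosolic ribosomal proteins had 67 of 86 members lower by adjusted p, beside 27.4% of all tested genes, with a median of -0.26, and only *Rpl24* past 1.5-fold, which shares 47.0% of its exon bases with *Gm28037*. None of 20 cytosolic aminoacyl-tRNA synthetases was called, and 10 passed the adjusted p as lower (median -0.14). Of 77 mitochondrial ribosomal proteins 39 were higher and 5 lower by adjusted p, beside 25.7% and 27.4% of all tested genes (median 0.20), and 4 were called higher, beside 8.17%. *Mrpl34* (0.95 ± 0.18), *Mrpl19* (0.80 ± 0.15), *Mrpl49* (0.66 ± 0.11) and *Mrps2* (0.61 ± 0.14) passed 1.5-fold. *Mrpl19* shares 36.0% of its exon bases with *Gcfc2* on the opposite strand.

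Nuclear genes of the respiratory chain and ATP synthase had no called member of 83, with 18 higher and 2 lower by adjusted p, beside 25.7% and 27.4% of all tested genes (median 0.10). The 13 protein genes of mitochondrial DNA had none called either and 5 lower by adjusted p (median -0.20). Regulators of mitochondrial biogenesis and dynamics had 4 of 28 higher and none lower (median 0.08). *Ppargc1a*, which encodes PGC-1alpha, was at 47.5 to 321 CPM in Doxo (median 105) and at 121 to 585 CPM in Doxo-NMN hearts (median 322), beside 251 to 697 CPM in Ctrl (median 363). Its log2 fold change was 1.25 ± 0.23 (adjusted p = 3.1e-05). The mitochondrial methyltransferase *Tfb1m* rose by 0.66 ± 0.12 and the protease *Oma1* by 0.60 ± 0.10, and *Ppargc1b* by 0.60 ± 0.23 with an adjusted p of 0.027, which it lost in the fit of the Doxo and Doxo-NMN hearts alone.

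In fuel metabolism, 4 of 33 fatty acid and fasting genes fell and none rose (median -0.10). Lipoprotein lipase *Lpl* went from a median of 13568 to 8514 CPM (-0.73 ± 0.12). *Angptl4* and *Acot1* were not called in 12 and 10 of the 26 fits without 1 heart, among them that without Doxo replicate 8 (adjusted p = 0.28 and 0.19). Glucose uptake and glycolysis had 4 of 26 higher and 2 lower (median 0.20). The muscle enolase *Eno3* (765 to 1381 CPM), *Pfkl* (80.0 to 147 CPM), *Pgam1* and *Pfkfb2* rose, while *Pfkfb3* (-1.88 ± 0.29) and the basal glucose transporter *Slc2a1* (-0.67 ± 0.14) fell. Cholesterol synthesis and uptake had 2 of 24 higher, among them *Dhcr7* (1.20 ± 0.19), and 1 lower, *Lss* (-0.82 ± 0.16), with a median of 0.16.

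Of the contractile genes, the myosin heavy chains *Myh7* and *Myh6* were called in opposite directions. *Myh7*, the fetal and slow myosin heavy chain, was at 453 to 18492 CPM in Doxo (median 8388) and at 570 to 14648 CPM in Doxo-NMN hearts (median 2332), against 357 to 494 CPM in Ctrl. NMN hearts spanned a wide range and overlapped the Doxo hearts, and the log2 fold change was -1.62 ± 0.40 (adjusted p = 9.9e-04). *Myh6*, the adult isoform of the mouse heart, was at 7283 to 37460 CPM in Doxo (median 19743) and at 13343 to 44514 CPM in Doxo-NMN hearts (median 39241), a log2 fold change of 0.82 ± 0.18 (adjusted p = 3.0e-04). In all, 2 of 21 sarcomere genes rose and 3 fell (median 0.06), and of 17 cardiac stress genes 9 fell and 1 rose (median -0.85). The stress genes included the titin-binding *Ankrd1*, at medians of 4843 and 949 CPM (-1.90 ± 0.44), *Xirp1* (-1.36 ± 0.25), *Fhl1* (-1.32 ± 0.23) and the calcineurin target *Rcan1* (169 to 78.4 CPM). *Ankrd23* also fell (-1.46 ± 0.28), but it shares 78.2% of its exon bases with *Gm42417*.

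Calcium handling and ion channel genes had 5 of 30 higher and none lower (median 0.18). *Kcna5* is given above, and the pacemaker channels *Hcn2* (0.69 ± 0.19) and *Hcn4* (0.72 ± 0.21) and the sodium channel subunit *Scn4b* (0.68 ± 0.26) also rose. *Atp2a2*, the calcium pump of the sarcoplasmic reticulum, was not called, at 0.12 ± 0.09, and neither was the release channel *Ryr2*, at -0.08 ± 0.09. *Scn4b* did not pass in the 8 Doxo and 9 Doxo-NMN hearts under 100 CPM of *Myl4*, nor *Hcn2* and *Hcn4* in the 5 and 4 hearts at or over it.

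The extracellular matrix list moved in both directions, with 14 of 39 members higher and 9 lower (median 0.37). Fibrillar and type VI collagens made up the leading increases. *Col6a2* went from a median of 11.5 to 43.9 CPM (1.21 ± 0.28), *Col6a1* from 16.7 to 50.9 CPM (1.18 ± 0.24), *Col5a1* from 12.2 to 32.3 CPM (1.07 ± 0.23) and *Col1a2* from 35.6 to 73.0 CPM (0.95 ± 0.24), all beside higher Ctrl medians of 90.9, 88.9, 53.5 and 145 CPM. The leading decreases were in matrix enzymes, namely *Adamts4*, *Adamts1* (232 to 84.2 CPM, -1.45 ± 0.28), the crosslinking enzyme *Lox* (31.8 to 8.18 CPM, -1.70 ± 0.24) and the membrane protease *Mmp14* (36.8 to 12.9 CPM, -1.23 ± 0.17). Endothelial adhesion and clotting genes had 7 of 18 lower and 2 higher (median -0.12), with *Sele* and *Selp*, which capture leukocytes, at -2.97 ± 0.48 and -4.17 ± 0.63, the urokinase receptor *Plaur* at -1.81 ± 0.25 and *Nos3* at -0.87 ± 0.12. *Icam2* rose by 0.65 ± 0.12. Cell proliferation genes had 6 of 28 lower and 1 higher (median -0.32), and *Bub1b* fell from a median of 2.05 to 0.910 CPM (-1.52 ± 0.25) while *Cenpf* rose from 5.76 to 15.4 CPM (0.92 ± 0.25).

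NMN feeds NAD+, so the genes of its metabolism were read one by one. Of 36 tested members 2 rose and 4 fell, beside 8.17% and 8.88% of all tested genes, and the median was 0.03. *Nadsyn1*, which makes NAD+ from its acid form (chromosome 7, 143795584 to 143822849, GRCm38, minus strand), was the one with the smallest adjusted p. It was at 3.61 to 5.06 CPM in Ctrl (median 4.23), 2.29 to 4.59 CPM in Doxo (median 3.09) and 4.86 to 6.03 CPM in Doxo-NMN hearts (median 5.28). Every Doxo-NMN heart was above every Doxo heart, and 8 of them were above every Ctrl heart. The log2 fold change was 0.67 ± 0.08 against Doxo (adjusted p = 3.8e-07) and 0.31 ± 0.08 against Ctrl (adjusted p = 0.0051).

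*Sirt3*, the main mitochondrial deacetylase, was the other member that rose, from a median of 14 to 26.4 CPM (0.71 ± 0.13). The nuclear deacetylase *Sirt1* fell from 29.7 to 19.3 CPM (-0.78 ± 0.13). *Cd38*, which degrades NAD+ and NMN, was at 7.91 to 30.2 CPM in Doxo (median 15) and at 6.65 to 11.6 CPM in Doxo-NMN hearts (median 9.47), a log2 fold change of -0.80 ± 0.16 (adjusted p = 6.9e-05). *Aox1*, an aldehyde oxidase that clears nicotinamide products, fell by 1.39 ± 0.22 and the riboside kinase *Nmrk2* by 0.88 ± 0.25, from 37.6 to 19.0 CPM. *Nmrk2* was above Ctrl (1.06 ± 0.25, adjusted p = 0.0017), and its change against Doxo did not pass in the 5 Doxo and 4 Doxo-NMN hearts at or over 100 CPM of *Myl4*.

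*Nampt*, the rate-limiting salvage enzyme, changed by -0.42 ± 0.11 (adjusted p = 0.0012), under 1.5-fold, and its medians were 205 CPM (Ctrl), 422 CPM (Doxo) and 311 CPM (Doxo-NMN). Increases under 1.5-fold that passed the adjusted p were found in *Nmnat1* (0.55 ± 0.13), *Sirt5* (0.55 ± 0.09), *Sirt4* (0.47 ± 0.10), *Parp1* (0.45 ± 0.07), *Sirt6* (0.31 ± 0.10), *Parp12* (0.26 ± 0.05) and *Naprt* (0.24 ± 0.08). *Nadk2* (-0.25 ± 0.07) and *Nt5e* (-0.24 ± 0.10) were lower. *Nmnat3*, *Nmnat2*, *Nmrk1*, *Nnmt*, *Slc12a8*, *Slc25a51*, *Nnt*, *Nadk*, *Kmo*, *Ido1*, *Tdo2*, *Bst1*, *Pnp*, *Sirt2*, *Sirt7* and the polymerases *Parp2*, *Parp3*, *Parp9*, *Parp10* and *Parp14* had adjusted p from 0.066, in *Sirt2*, to 0.98, in *Nmnat2*.

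Genes that Doxo alone had not detectably moved were then separated. By the rule that a gene is called in Doxo-NMN vs. Doxo and has an adjusted p of at least 0.05 in Doxo vs. Ctrl, 168 of the 2428 called genes were such (1.18% of all tested genes), 60 higher and 108 lower with NMN. A missed threshold does not show that Doxo left a gene alone. For 37 of the 168 the 95% interval of the Doxo vs. Ctrl fold change lay within 1.5-fold in either direction. The 60 higher genes lay, by their median relative to Ctrl, at -0.53 to 0.24 on the log2 scale in Doxo hearts and at -0.04 to 0.44 in Doxo-NMN hearts. For the 108 lower genes these ranges were -0.42 to 0.65 and -0.53 to -0.13. The median heart lay at -0.25 in Doxo and 0.36 in Doxo-NMN for the higher genes, and at 0.12 and -0.43 for the lower. The genes were selected by the difference between these same hearts, so the values describe the selected genes and do not test that difference. In 42 genes, 14 higher and 28 lower, Doxo-NMN hearts differed by the same rule from both Doxo and Ctrl hearts. The number of genes not moved by Doxo was 456 without a filter on low counts, 99 with at least 10 counts in every heart, 299 in the hearts under 100 CPM of *Myl4*, 198 in those at or over it and 191 with the mean log2 CPM of the atrial markers as a covariate. Among the 168 were 95 of the 299, 46 of the 198 and 124 of the 191. Of the 42 that differed from both groups, 15, 14 and 27 did so again in these settings, in the same order. With limma's voom and sample weights the number not moved by Doxo was 164, of which 76 were among the 168.

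The gene of this kind with the smallest adjusted p was *Arntl*, which encodes BMAL1, the positive arm of the circadian clock (chromosome 7, 113207465 to 113314126, GRCm38, plus strand). The clock is a feedback loop in which BMAL1 and CLOCK switch on the *Per*, *Cry*, *Nr1d1*, *Dbp* and *Wee1* genes, and the PER and CRY proteins then shut BMAL1 and CLOCK off. *Arntl* was at 18.5 to 33.4 CPM in Ctrl (median 23.7), 7.79 to 42.4 CPM in Doxo (median 15.9) and 2.83 to 12.4 CPM in Doxo-NMN hearts (median 4.88). Every Doxo-NMN heart was below every Ctrl heart, and 12 of 13 were below every Doxo heart. Its log2 fold change was -1.77 ± 0.21 against Doxo (adjusted p = 2.0e-07), -2.17 ± 0.21 in Doxo-NMN vs. Ctrl and -0.41 ± 0.20 in Doxo vs. Ctrl (adjusted p = 0.067). The Doxo vs. Ctrl value is close to the threshold, and *Arntl* stayed called against Doxo in all of 12 other settings but counted as not moved by Doxo in 8 of them.

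*Dbp*, a clock output transcription factor (chromosome 7, 45705088 to 45710203, GRCm38, plus strand), moved in the other direction. It was at 5.62 to 23.8 CPM in Ctrl (median 14.3), 6.57 to 31.1 CPM in Doxo (median 17.5) and 20.8 to 70.6 CPM in Doxo-NMN hearts (median 48.8). In 12 of 13 Doxo-NMN hearts *Dbp* was above every Doxo and every Ctrl heart. Its log2 fold change was 1.48 ± 0.21 (adjusted p = 1.2e-06), beside 0.31 ± 0.20 in Doxo vs. Ctrl (95% interval -0.10 to 0.72, adjusted p = 0.17). *Wee1*, a kinase that holds cells before mitosis and a clock target, was at 7.19 to 30.1 CPM in Doxo (median 12.7) and at 12.5 to 31.2 CPM in Doxo-NMN hearts (median 24.8), a log2 fold change of 0.73 ± 0.17 (adjusted p = 4.5e-04). 12 Doxo-NMN hearts exceeded every Ctrl heart in *Wee1*, whose Ctrl hearts lay between 8.92 and 14.2 CPM. *Dbp* and *Wee1* met the rule in all of 12 other settings. *Dbp* shares 18.0% of its exon bases with *Sphk2* on the opposite strand.

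Over the 19 tested clock genes, 6 fell and 1 rose (median -0.33). *Nfil3*, which represses at the sites that DBP activates, was at 13.7 to 129 CPM in Doxo (median 34.3) and at 6.48 to 31.2 CPM in Doxo-NMN hearts (median 12.1, -1.67 ± 0.24, adjusted p = 1.7e-06). *Per1* went from a median of 220 to 92.9 CPM (-1.20 ± 0.24) and *Cry2* from 77.0 to 45.2 CPM (-0.84 ± 0.17), with Ctrl medians of 27.9 and 26.2 CPM. *Bhlhe40* (-1.07 ± 0.22), named here after its value was seen along with *Per3*, *Clock* and *Per2*, also fell. *Per3* was higher by 0.54 ± 0.14 and *Clock* lower by 0.33 on the log2 scale, both past the adjusted p and under 1.5-fold, and *Per2* was at -0.15 ± 0.18 (adjusted p = 0.49). *Tef* and *Nr1d2*, the most abundant members, were at 0.14 ± 0.12 and 0.11 ± 0.10 and did not pass. The time of day at which each heart was taken is not given in the sources used here, and its part in these values was not tested.

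**Figure D3:**
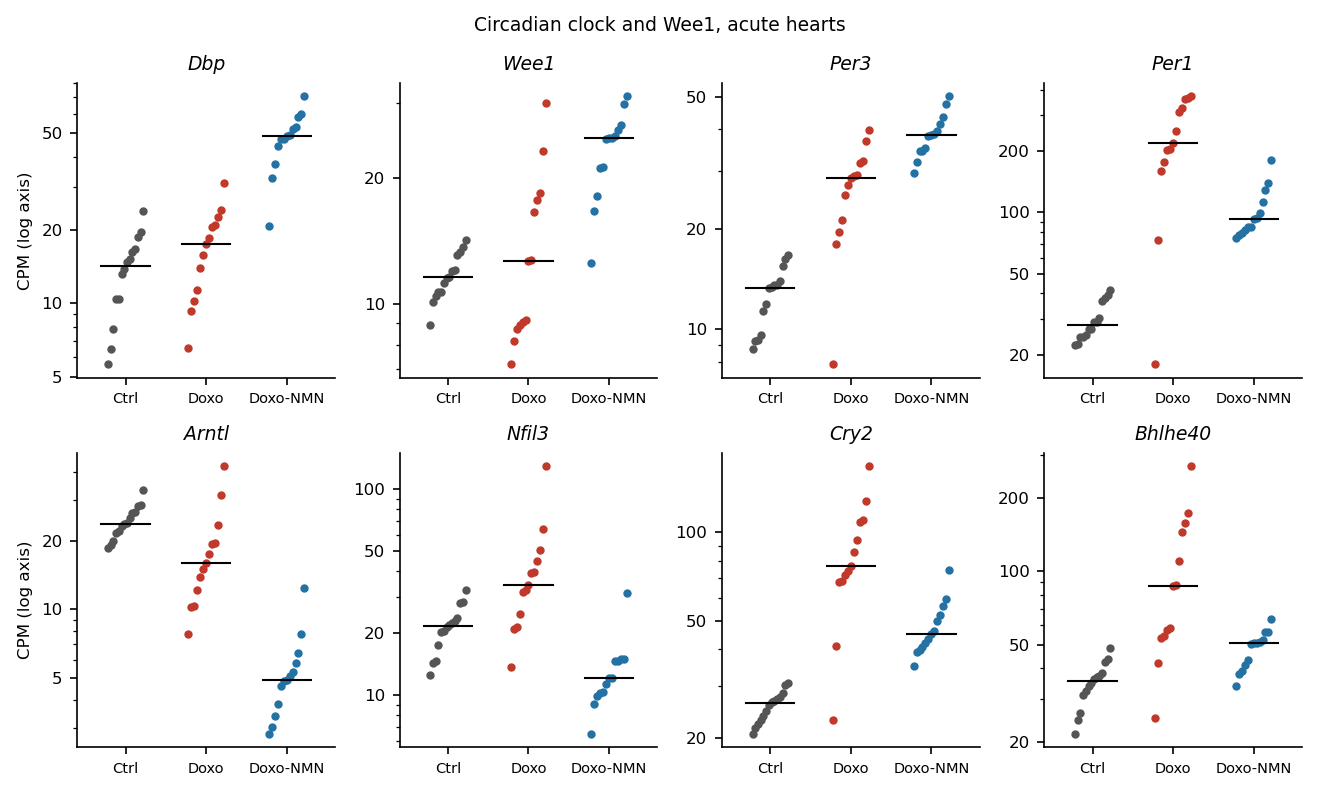
Level in each acute heart of 7 clock genes and *Wee1*, as CPM on a log axis, for 14 Ctrl, 13 Doxo and 13 Doxo-NMN hearts, with a black line at the group median. *Dbp* lies above and *Arntl* below both other groups in 12 of 13 Doxo-NMN hearts, while *Per1*, *Cry2* and *Bhlhe40* are highest in Doxo hearts.

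Interferon-stimulated genes are switched on by cells against viruses. Of the 34 on the list, *Isg15*, *Oasl2* and *Usp18* were among the genes not moved by Doxo, beside 1.18% of all tested genes. *Oas1g* and *Ifi27l2a*, which are also known to respond to interferon, were not on the list and were named by the rule for genes not moved by Doxo. The sequences of 3 promoters are shown as examples that hold the element at which interferon regulatory factors bind. RefSeq (GRCm38.p6) held a promoter for 10802 of the 14240 tested genes. The 250 bases before the start were searched on both strands for GAAA, any 2 bases and GAAA, and 351 of the 10802 promoters (3.25%) had them. Matches are printed in capitals and may overlap.

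*Oas1g*, chr5:120887614-120887863, minus strand: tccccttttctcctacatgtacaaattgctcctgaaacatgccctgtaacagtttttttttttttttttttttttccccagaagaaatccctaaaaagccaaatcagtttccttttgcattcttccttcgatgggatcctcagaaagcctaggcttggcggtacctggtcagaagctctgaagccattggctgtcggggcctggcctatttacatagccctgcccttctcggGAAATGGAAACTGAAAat
*Isg15*, chr4:156200819-156201068, minus strand: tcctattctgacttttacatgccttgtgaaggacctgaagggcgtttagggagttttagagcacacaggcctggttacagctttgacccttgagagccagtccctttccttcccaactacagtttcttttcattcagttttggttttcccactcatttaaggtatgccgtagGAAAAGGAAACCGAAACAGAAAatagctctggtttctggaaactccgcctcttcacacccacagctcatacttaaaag
*Bst2*, chr8:71537473-71537722, minus strand: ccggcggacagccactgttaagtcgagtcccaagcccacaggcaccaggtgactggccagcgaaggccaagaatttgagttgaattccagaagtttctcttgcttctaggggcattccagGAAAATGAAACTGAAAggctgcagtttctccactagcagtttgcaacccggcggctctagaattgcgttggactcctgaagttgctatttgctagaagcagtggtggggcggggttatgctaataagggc

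*Oas1g* and *Bst2* had 2 overlapping matches each and *Isg15* had 3. *Oas1a* also had 2, and *Oasl2*, *Irf7*, *Psmb9* and *Ifi44* had none in this window. Of the members that fell, *Cxcl10* and *Stat2* had 1 and *Oasl1* had none, and the promoter of *Mx2* was not analysed here. These matches describe the letters and do not show binding.

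*Oas1g*, an oligoadenylate synthetase (chromosome 5, 120876142 to 120887613, GRCm38, minus strand), was at 0.367 to 1.15 CPM in Ctrl (median 0.622), 0.222 to 1.05 CPM in Doxo (median 0.524) and 0.444 to 2.22 CPM in Doxo-NMN hearts (median 1.12). The change was 1.12 ± 0.24 (adjusted p = 2.1e-04), with -0.20 ± 0.24 in Doxo vs. Ctrl and 0.92 ± 0.23 in Doxo-NMN vs. Ctrl. 8 Doxo-NMN hearts exceeded every Doxo heart, and the other 5 overlapped them. *Oas1g* has close copies, *Oas1a* among them, so reads may have been divided between them.

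*Ifi27l2a* was at 3.15 to 30.8 CPM in Doxo (median 11.8) and at 16.1 to 57.3 CPM in Doxo-NMN hearts (median 23.2), a log2 fold change of 1.05 ± 0.24 (adjusted p = 4.7e-04). *Oasl2*, a relative of *Oas1g*, was at 2.82 to 17.5 CPM in Doxo (median 7.48) and at 5.43 to 35.7 CPM in Doxo-NMN hearts (median 14.5, 0.92 ± 0.25, adjusted p = 0.0020). *Usp18*, which removes ISG15 from proteins and curbs interferon signalling, rose from a median of 1.83 to 3.58 CPM (0.67 ± 0.17, adjusted p = 9.7e-04). *Ifi27l2a*, *Oasl2* and *Usp18* overlapped between groups, and each met the not-moved rule in all of 12 other settings. Ctrl hearts lay at 8.804 to 23.53 CPM in *Ifi27l2a*, 6.296 to 11.98 CPM in *Oasl2* and 1.78 to 3.226 CPM in *Usp18*. In each of these genes the Ctrl median was above the Doxo and below the Doxo-NMN median. The part of a lower Doxo level in their change against Doxo was not tested. *Isg15* itself, named after its value was seen, rose by 0.72 ± 0.23 (adjusted p = 0.0085) with a Doxo vs. Ctrl adjusted p of 0.085.

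Of all 34 members of the list, 8 rose and 4 fell (median 0.23). *Bst2*, which tethers virus particles, went from a median of 7.84 to 15.1 CPM (0.84 ± 0.16), *Oas1a* from 1.01 to 2.91 CPM (1.06 ± 0.21) and *Psmb9* from 3.01 to 5.11 CPM (0.74 ± 0.16), with Doxo below Ctrl in all of them at -0.75, -0.73 and -0.57. The members that fell were *Mx2* (4.02 to 2.16 CPM, -1.18 ± 0.23), the chemokine *Cxcl10* (-1.87 ± 0.50), *Stat2* (-0.88 ± 0.22) and *Oasl1* (-0.82 ± 0.31). Without Doxo replicate 5 *Oasl1* did not pass (adjusted p = 0.40), *Stat2* was under 1.5-fold (-0.57) and *Cxcl10* was at -0.97 (adjusted p = 0.043), and *Stat2* and *Cxcl10* did not pass in the 5 and 4 hearts at or over 100 CPM of *Myl4*. *B2m*, an abundant member, was at -0.08 ± 0.11.

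**Figure D4:**
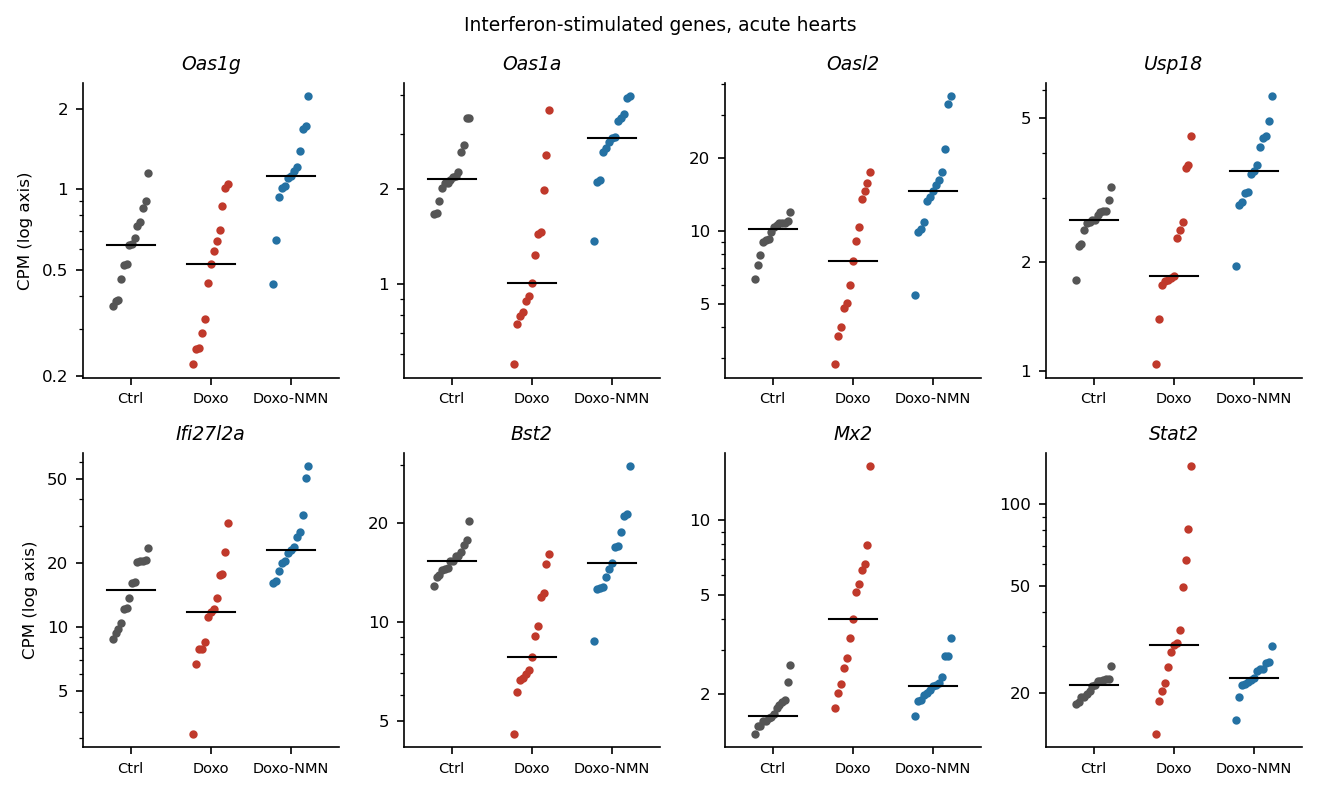
Level in each acute heart of 6 genes of the interferon list, *Oas1g* and *Ifi27l2a*, as CPM on a log axis, for 14 Ctrl, 13 Doxo and 13 Doxo-NMN hearts, with a black line at the group median. *Oas1g*, *Oas1a*, *Oasl2*, *Usp18*, *Ifi27l2a* and *Bst2* have a higher median in Doxo-NMN than in Doxo hearts, *Mx2* and *Stat2* a lower one, and the hearts of the groups overlap in all 8.

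Other genes that Doxo had not detectably moved also rose with NMN. They included *Frem2*, an epithelial matrix protein (6.13 to 10.8 CPM, 0.77 ± 0.14, Doxo vs. Ctrl 0.06 ± 0.14), and *Klhdc7a* (0.62 ± 0.12). *Gramd1b*, which moves cholesterol from the cell membrane (0.64 ± 0.12), and the alanine aminotransferase *Gpt* (26.3 to 57 CPM, 0.88 ± 0.19) were also among them. So were *Ms4a6b* (0.64 ± 0.14), *Rnf144b* (0.59 ± 0.11), the sulfotransferase *Hs3st5* (0.86 ± 0.20) and *Cage1* (0.60 ± 0.15). *Rnf144b* was close to both thresholds and met the rule in only 4 of 12 other settings. *Frem2*, *Hs3st5* and *Cage1* differed from both Doxo and Ctrl hearts, and *Cage1* did not pass in the 5 and 4 hearts at or over 100 CPM of *Myl4*.

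Those that fell included *Arrdc4*, an arrestin-like gene that glucose induces, at 7.20 to 26.1 CPM in Doxo (median 11.9) and 6.09 to 10.4 CPM in Doxo-NMN hearts (median 7.47). Its log2 fold change was -0.79 ± 0.12 (adjusted p = 4.1e-06), beside -0.15 ± 0.12 in Doxo vs. Ctrl and -0.94 ± 0.12 in Doxo-NMN vs. Ctrl. The phosphatase *Ptpre* changed by -0.69 ± 0.13 with a Doxo vs. Ctrl value of -0.03 ± 0.13, the serine protease of activated fibroblasts *Fap* by -0.80 ± 0.16 and the adaptor *Lcp2* by -0.92 ± 0.23, and each also lay below Ctrl. Transcriptional regulators among them were *Tgif1* (-1.08 ± 0.19), *Snai1* (-0.75 ± 0.13) and *Hhex* (-0.88 ± 0.18). *Plekho2* (-0.94 ± 0.18), the receptor of platelet-activating factor *Ptafr* (-0.99 ± 0.20) and the kinase *Yes1* (-0.59 ± 0.11) completed the list, and *Yes1* did not pass in the 5 and 4 hearts at or over 100 CPM of *Myl4*.

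*Hspa1a*, the stress-induced HSP70, also differed from both groups. Its promoter is shown because heat shock factor is known to act there. The letters GAA, any 2 bases and TTC were found in 656 of the 10802 promoters (6.07%).

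*Hspa1a*, chr17:34972157-34972406, minus strand: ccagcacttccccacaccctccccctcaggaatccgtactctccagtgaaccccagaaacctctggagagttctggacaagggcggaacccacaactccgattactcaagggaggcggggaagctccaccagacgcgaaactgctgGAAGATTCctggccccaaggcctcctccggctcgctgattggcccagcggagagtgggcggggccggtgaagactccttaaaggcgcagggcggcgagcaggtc

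It held 1 match, in capitals, as did that of its near copy *Hspa1b*. *Hspa1a* was at 1.33 to 12 CPM in Ctrl (median 4.55), 1.80 to 8.09 CPM in Doxo (median 3.57) and 1.24 to 3.61 CPM in Doxo-NMN hearts (median 1.74). The log2 fold change was -1.11 ± 0.25 against Doxo (adjusted p = 4.3e-04), and Doxo-NMN vs. Ctrl gave -1.36 ± 0.25. Reads may have been divided between these copies, and the change against Doxo did not pass in the 5 and 4 hearts at or over 100 CPM of *Myl4*. *Hspa1a* also shares 19.0% of its exon bases with *Gm20481* on the opposite strand.

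Cell type markers were read in the same way, and in bulk tissue fewer cells of a type and less RNA per cell cannot be told apart. Neutrophil markers had 6 of 9 tested members lower and none higher (median -1.24), with a summed level of 4.44 to 382 CPM in Doxo (median 19.8), 6.33 to 37.9 CPM in Doxo-NMN (median 11.9) and 2.73 to 8.50 CPM in Ctrl hearts. *Ngp* (-3.84 ± 0.83) and *Ltf* (-3.60 ± 0.82) fell, and without Doxo replicate 13 they were at -2.54 and -1.88, both still called. *S100a8* (-1.84) and *S100a9* (-1.63) were not called without Doxo replicate 13, at -0.90 and -0.60. Resident macrophage markers had 2 of 12 higher, *Adgre1* (1.10 ± 0.21) and *Folr2* (0.80 ± 0.22), and none lower (median 0.31), with sums of 167 to 423 CPM in Doxo and 236 to 414 CPM in Doxo-NMN hearts. *Folr2* shares 63.1% of its exon bases with *Gm10602* on the opposite strand. Whether neutrophils or macrophages had a part in the immune genes above was not tested.

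Fibroblast markers had 5 of 10 higher and 2 lower (median 0.54), and their sum was 1136 to 3339 CPM in Doxo (median 1490), 1196 to 3202 CPM in Doxo-NMN (median 1910) and 1749 to 3503 CPM in Ctrl hearts. *Col1a1* (1.39 ± 0.38), *Col3a1* (1.51 ± 0.45, and 2.34 without Doxo replicate 6) and *Lum* (0.86 ± 0.25) rose. *Tcf21* (-0.85 ± 0.18), a transcription factor of resident fibroblasts that Doxo had not detectably moved, and *Dcn* (-0.62 ± 0.17) fell. *Col1a1* and *Col3a1* did not pass in the 8 and 9 hearts under 100 CPM of *Myl4*. Cardiomyocyte markers had 2 of 8 higher, *Myh6* and *Actc1* (0.92 ± 0.26), and none lower (median 0.29). None of the 10 atrial or the 10 endothelial markers was called (medians 0.20 and -0.10), and *Myl4* itself was at 0.56 ± 1.11 (adjusted p = 0.69). Smooth muscle and pericyte markers had 1 of 9 higher, *Acta2* (0.62 ± 0.24), and 1 lower, *Tagln*, which was under 1 CPM in every heart and shares 62.4% of its exon bases with *Gm48529* on the opposite strand (median of the list 0.00). Schwann and neuronal markers had 3 of 6 higher (median 0.53), with *Sox10*, *Gfra3* and *Dbh* at 0.59, 0.78 and 0.82.

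Red cell markers, summed, were at 441 to 4340 CPM in Ctrl, 1.38 to 341 CPM in Doxo (median 2.39) and 0.399 to 2.98 CPM in Doxo-NMN hearts (median 1.71). Of 8 tested, 5 were called lower with NMN (median -3.21), but without Doxo replicate 6 *Hba-a1*, *Hba-a2*, *Hbb-bs* and *Hbb-bt* were not called, with adjusted p from 0.13 to 0.25. B lymphocyte markers, summed over 9 genes, were at 0.563 to 95.1 CPM in Doxo (median 0.885) and 2.01 to 6.22 CPM in Doxo-NMN hearts (median 3.87). Of 4 tested members 2 were called lower (median -0.68), *Igkc* and *Ighm*. *Ighm* was at 0.140 to 70.3 CPM in Doxo (median 0.530) and at 1.48 to 4.25 CPM in Doxo-NMN hearts (median 2.665), so its median was higher with NMN although its fitted change was -1.53. Without Doxo replicate 11 it was at -0.03 (adjusted p = 0.96). *Igkc* (-4.17 ± 0.89) stayed called without any 1 heart, at -2.52 without that replicate. The sign of its change was reversed in the hearts under 100 CPM of *Myl4*. None of 2 T and NK markers was called (median -0.27). Adipocyte markers had 2 of 8 higher and 2 lower (median 0.56), *Plin4* (1020 to 541 CPM, -0.76 ± 0.13) and *Cidea* (-0.69 ± 0.15) as lower and *Car3* and *Plin1*, given above, as higher.

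The second regimen of the series gave other mice NMN at 500 mg/kg/day in drinking water and Doxo in 5 doses of 4 mg/kg, with hearts collected on day 60 (5 Ctrl, 6 Doxo and 6 Doxo-NMN hearts). These hearts are not shared with the acute study, and the difference between the regimens was not tested. There edgeR called 0 of 14960 tested genes in Doxo-NMN vs. Doxo at an adjusted p under 0.05, and 377 of the 13195 genes tested in both studies had an unadjusted p under 0.05. Of the 2428 genes called in the acute hearts, 2179 were tested, and 1531 (70.3%) had the same sign, beside 62.3% of all 13195 genes. Of the 168 not moved by Doxo, 142 were tested and 63 (44.4%) had the same sign. *Dbp* was at 29.9 to 131 CPM in chronic Doxo and at 89.5 to 118 CPM in chronic Doxo-NMN hearts, with a log2 fold change of 0.42, and *Arntl* at 2.86 to 10.5 and 3.12 to 6.34 CPM, with -0.80. *Palmd* was at 55.2 to 68.8 and 56.9 to 66.0 CPM, with a log2 fold change of 0.01, and *Nadsyn1* at 4.76 to 7.33 and 5.91 to 6.56 CPM, with 0.10. All of these have an adjusted p over 0.99.

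**Figure D5:**
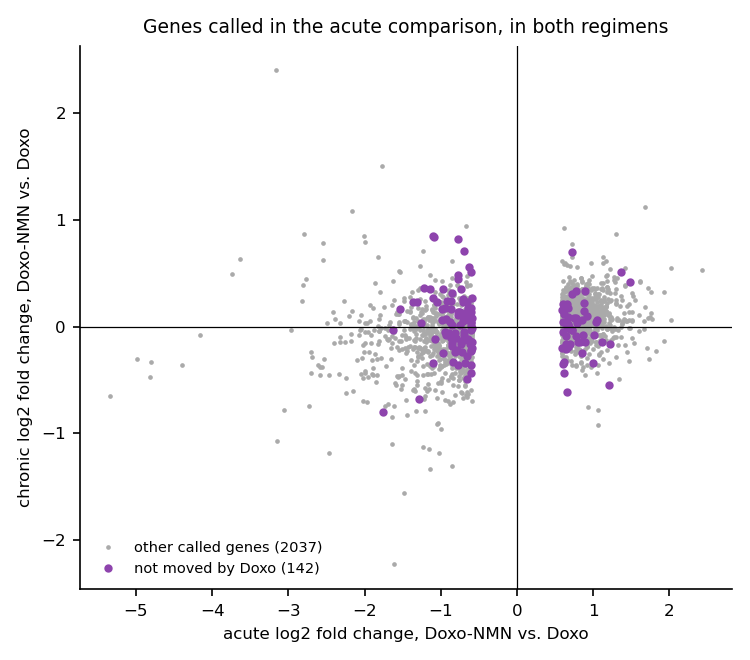
Log2 fold change of Doxo-NMN vs. Doxo in the acute study (horizontal) and in the chronic study (vertical) for the 2179 genes called in the acute study and tested in both. Purple points are the 142 tested genes that Doxo had not detectably moved and grey points the others. Most chronic values lie closer to 0 than the acute ones.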

How the data were processed

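Gene counts of 40 acute and 17 chronic mouse hearts were used as deposited. The deposited counts are whole numbers per gene, described as mapped reads, that the authors made from single-end poly(A) libraries (NovaSeq), with STAR 2.7.3a, featureCounts 2.0.0 and mm10 named in the submitters' processing notes. The annotation and strand setting are not given in the sources used here, so overlapping and antisense genes cannot be told apart by strand. Besides the overlaps given with the genes, *Ctsl* (26.8%), *Nos3* (25.2%), *Ccnd1* (23.4%) and *Bnip3* (22.3%), among others, share exon bases with a gene on the opposite strand. Groups came from the sample titles. From the counts, edgeR 4.0.16 (filterByExpr by group, TMM, glmQLFit, glmQLFTest) was fitted to all 40 acute hearts, or all 17 chronic hearts, with no covariate. The study's methods name edgeR, TMM and the quasi-likelihood F-test. The filter, the single fit of all groups and the absence of covariates were chosen here. Each library is 1 heart, and no 2 hearts of a group agreed within sampling noise (lowest chi-square per gene 8.75).

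Tested on simulated data for Doxo-NMN vs. Doxo with 14129 genes, the fit recovered 70.0%, 84.0%, 98.0% and 92.0% of genes changed by 1.5, 2, 3 and 4-fold. Recovery meant an adjusted p under 0.05 with the right sign and no fold limit, so these are not the shares that would be called. Only 50 genes were changed at each fold, and each simulated gene had the same spread in all groups, unlike the real hearts. The comparison, gene lists and tests were chosen with earlier results of these data known. Genes were named by rule: the 10 called with the smallest adjusted p and the 10 with the largest fold change (mean of at least 1 CPM) in each direction, the 10 in each direction among those not moved by Doxo, 6 in each direction among those that differed from both groups, up to 4 called and the 2 most abundant members of each list, and all NAD+ genes. Gene positions are from GENCODE vM21 (GRCm38). Alternatives were DESeq2 1.42.0, limma 3.58.1 (voom with sample weights), RLE scaling, other filters, fold cutoffs, groups fitted, a replicate block, an atrial covariate, a split on Myl4, halved counts and each heart left out. Some genes are not reported here.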

Additional observations from a re-analysis of the deposited data

Results flagged for a closer look

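In the chronic study, values of 8 genes that lead the acute comparison were checked in each group for a single heart far from the others, with Dixon's test at its 95% critical value, which flags about 1 in 20 groups by chance. The highest Ctrl heart in *Wee1*, at 17.2 CPM against a group median of 9.49 CPM, stood apart. So did the highest Doxo heart in *Nfil3*, at 15.85 CPM against a median of 9.37 CPM, and the highest Doxo heart in *Per1*, at 207 CPM against a median of 92.4 CPM. The acute groups hold over 10 hearts each and were not tested in this way.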

How the results depend on the processing

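Without a filter on low counts 456 genes (163 higher, 293 lower) were not moved by Doxo and 88 differed from both groups, and with at least 10 counts in every heart 99 (28, 71) were not moved, since fewer genes were tested. With no fold limit 7554 genes were called (3656, 3898), 945 not moved (497, 448) and 334 differed from both, and with a 2-fold limit these were 801 (266, 535), 36 (11, 25) and 4. Reading not moved as not called gave 309 (135, 174), and as an interval within 1.5-fold 37 (13, 24). Genes not moved numbered 299 (134, 165) in hearts under 100 CPM of *Myl4*, and those higher 114 in hearts at or over it and 100 with an atrial covariate. With limma's voom 64 differed from both. The cause of these shifts was not tested. Leaving out 1 heart gave 2158 to 2986 called genes (1013 to 1545 higher, 1110 to 1441 lower), 156 to 181 not moved (52 to 73, 95 to 128) and 34 to 51 that differed from both. DESeq2 called 2461, RLE scaling 2432 and the fit of Doxo and Doxo-NMN hearts alone 2249. Of 13 Doxo hearts, 1 correlated best with the Doxo-NMN heart of its own replicate number. Correlations of same-numbered hearts were -0.509 to 0.375, with 7 of 13 pairs over 0.1. With the replicate block 2454 genes were called (1321 higher, 1133 lower), and 118 of its 165 genes not moved were among the 168 of the main fit. *Ighm* reversed with voom (0.60), the replicate block (0.75) and in hearts under 100 CPM of *Myl4* (1.22), *Igkc* in the latter (0.081) and *Srebf1* in hearts at or over it (-0.016). Of the genes named near 1.5-fold, the call was lost in 13 of the 26 fits without 1 heart for *Trim63*, in 11 for *Ppargc1b* and *Rnf144b*, in 10 for *Sox10*, in 9 for *Acta2* and *Dbh*, in 8 for *Cage1* and *Pfkfb2*, in 7 for *Oma1*, in 6 for *Yes1* and *Mrps2*, in 5 for *Dcn*, in 2 for *Alg12*, *Gramd1b* and *Klhdc7a* and in 1 for *Cidea*.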
